A study of Mus musculus with 3 samples.

Results

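The aldehyde dehydrogenases described here are the 10 mouse genes Aldh3a1, Aldh3a2, Aldh1a1, Aldh1a2, Aldh1a3, Aldh2, Aldh7a1, Aldh9a1, Aldh6a1 and Aldh18a1, read in every probe whose RefSeq accession belongs to one of them. They account for 13 of the 55681 probes on each array, and Aldh3a1, Aldh7a1 and Aldh6a1 have more than 1 probe. Aldh3a1 was chosen by its higher signal with AR7 than with None in these same arrays, and the others were added as relatives and as enzymes of related pathways. Its difference between AR7 and untreated cells is therefore given as a description.

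The RNA came from wild type NIH3T3 cells, an immortalized line of mouse embryonic fibroblasts, grown to confluency in medium with serum. One culture had no treatment (None), one received 20 μM AR7 and one 20 μM BMS614, and all were collected at 24 h. AR7 is a small molecule made by the authors to bind the ligand-binding domain of retinoic acid receptor alpha (RARα) and activate chaperone-mediated autophagy (CMA), and BMS614 is a selective RARα antagonist. Both compounds were dissolved in DMSO, and the labels do not say whether the untreated culture received DMSO. There was 1 array per condition, so the differences have no replicates behind them and conditions could not be tested against each other. In an RNA extract of a whole culture, fewer cells with a transcript and less transcript per cell cannot be told apart.

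The arrays were one-colour Agilent arrays on one slide, so that slide does not differ between conditions. The scanner called 55.4% of probes well above background with None, 61.2% with AR7 and 61.8% with BMS614, and 30289 probes passed on all 3 arrays. Of the markers of the labelled cell type, 11 of 12 fibroblast genes were well above background on every array, among them Col1a1, Col1a2, Vim and Fn1, while Postn was not on any. Among markers of other cell types, Epcam, Krt18 and Tubb3 did not reach this level on any array, and Cdh1, Krt8, Krt14, Lyz2, Pecam1, Kdr, Rbfox3 and Syp did on all 3. Signals are given as scanned intensity and, for comparisons, on the log2 scale after background correction and quantile normalization (RMA). Technical error is the SD of the log2 difference between 2 arrays over the spots of probes printed 10 times. For AR7 minus None it ran from 0.39 at the lowest signals to 0.05 at the highest. This error covers spots on an array and leaves out variation between cultures.

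Aldehyde dehydrogenases oxidize aldehydes to carboxylic acids with NAD or NADP, and so clear reactive products of lipid peroxidation, alcohol and amino acid breakdown. Aldh1a1, Aldh1a2 and Aldh1a3 turn retinaldehyde into retinoic acid, the natural ligand of retinoic acid receptors. Aldh3a1 oxidizes medium-chain and lipid-derived aldehydes, is abundant in the cornea and is a known inducible gene of the aryl hydrocarbon receptor (AhR) in liver cells. NRF2, the regulator of the antioxidant response, acts through antioxidant response elements in front of many detoxifying genes.

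Promoter windows of 300 bases around the transcription start were found in the RefSeq table (GRCm38.p6) for 6 of the 10 genes, as 8 windows, and not for Aldh3a1, Aldh1a3, Aldh2 or Aldh7a1. The windows were searched on both strands for GCGTG, the core letters of the AhR response element, TGACNNNGC, those of the antioxidant response element, and AGGTCA, the half-site of retinoic acid receptors. GCGTG was present in 5 of the 8 windows, of 5 genes, and in 32.4% of all 32851 windows of the table. TGACNNNGC was present in 2 of the 8 windows, those of Aldh1a2 and Aldh9a1, and in 12.4% of all windows, and AGGTCA in 1, of Aldh6a1, and in 16.3% of all. The Aldh1a1 windows held none of these letters. Of these windows, that of Aldh3a2 is printed because this gene lies next to Aldh3a1 on chromosome 11 with 0 annotated genes between them, and that of Aldh9a1 is printed because it held both GCGTG and TGACNNNGC, as did that of Aldh1a2, and its gene was measured on every array. Capitals mark GCGTG or TGACNNNGC on either strand. The Aldh3a2 window is chr11:61267137-61267436 on the minus strand and has 1 GCGTG. The Aldh9a1 window is chr1:167349741-167350040 on the plus strand and has 2 matches to GCGTG, both written as CACGC, and 1 to TGACNNNGC.
Aldh3a2: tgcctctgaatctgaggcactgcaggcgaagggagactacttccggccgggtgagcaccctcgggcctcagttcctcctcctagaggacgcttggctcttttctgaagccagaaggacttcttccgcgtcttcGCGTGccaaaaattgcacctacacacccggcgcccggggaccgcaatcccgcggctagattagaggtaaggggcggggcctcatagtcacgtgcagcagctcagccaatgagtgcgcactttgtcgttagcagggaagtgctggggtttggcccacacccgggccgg
Aldh9a1: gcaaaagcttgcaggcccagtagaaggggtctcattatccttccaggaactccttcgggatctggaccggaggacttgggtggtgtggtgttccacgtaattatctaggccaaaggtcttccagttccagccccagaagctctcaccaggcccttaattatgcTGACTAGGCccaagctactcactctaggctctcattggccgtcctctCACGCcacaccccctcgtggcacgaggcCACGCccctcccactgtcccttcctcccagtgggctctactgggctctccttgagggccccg
These matches describe letters in the reference and not sites that were occupied in these cells.

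Aldh3a1 was higher with AR7 than on both other arrays in each of its 2 probes, and with BMS614 it was level with untreated cells. The dimmer probe (A_55_P2065562) had an intensity of 4690 with None, 12647 with AR7 and 6114 with BMS614. After normalization its log2 signal was 12.37 with None, 13.65 with AR7 and 12.33 with BMS614. AR7 thus stood apart, and the raw intensity with BMS614 was above that with None only before normalization. The log2 difference between AR7 and None was 1.28 (SD of repeated spots 0.06), that is 2.43-fold. Between BMS614 and None it was -0.04 (SD 0.05), within the error of spots.

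The brighter Aldh3a1 probe (A_55_P2101216) gave the same order with a smaller difference. Its intensity was 10305 with None, 19648 with AR7 and 13656.5 with BMS614, and its log2 signal was 13.52, 14.30 and 13.51. Neither probe was saturated on any array. The log2 difference between AR7 and None was 0.79 (SD 0.05), or 1.73-fold, below the 2-fold threshold that the dimmer probe passed. The probes therefore disagreed on the size of the difference by 0.49 on the log2 scale, which is more than the error of repeated spots, and by -0.04 for BMS614 minus None, within that error. Both are matched to the same RefSeq transcript, and the reason for the gap was not tested.

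Measured against all probes, Aldh3a1 combined a large difference with a bright signal. Of the 30289 probes that passed the background threshold on every array, 90.4% were dimmer than the brighter Aldh3a1 probe. For AR7 minus None the dimmer probe ranked 32nd of 30289 from the top and 1st among the 4564 probes at least as bright as itself. The brighter probe ranked 207th of 30289 and 1st among 2899. For BMS614 minus None the ranks were 18357th and 15569th, near the middle of the array. These ranks restate the contrast that chose the gene.

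**Figure D1:**
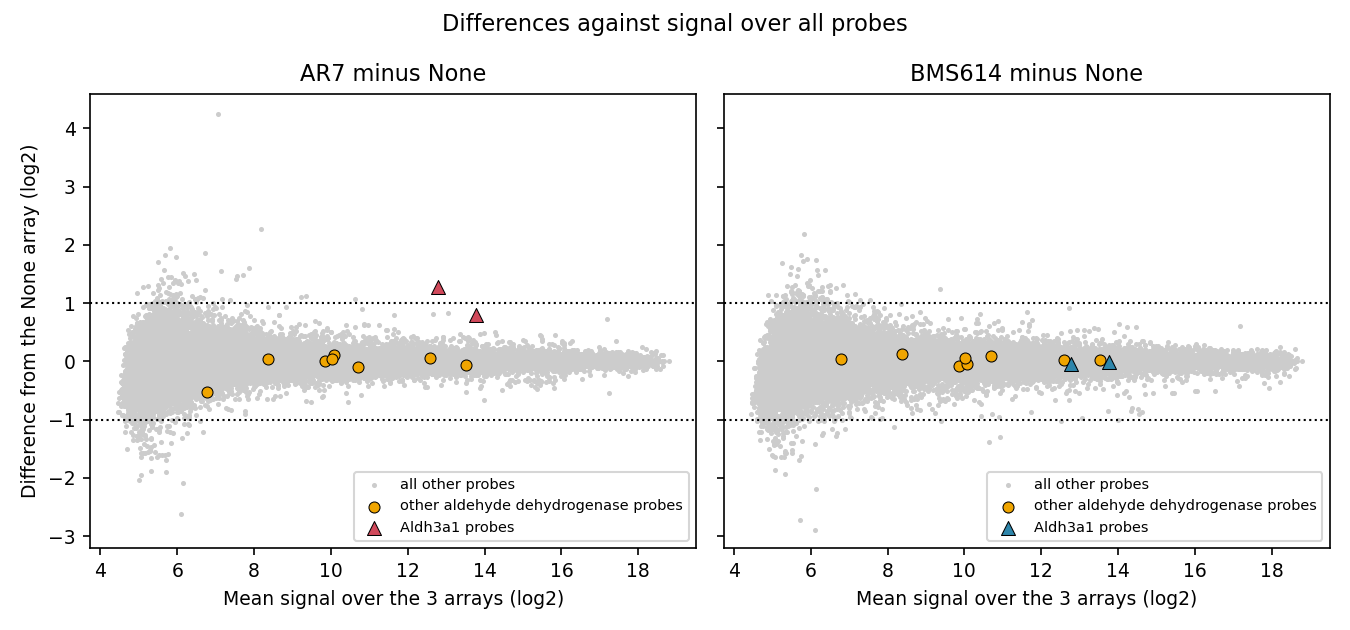
Log2 difference from the None array (vertical axis) against the mean log2 signal over the 3 arrays (horizontal axis) for AR7 (left) and BMS614 (right), with 1 point per probe well above background on all 3 arrays and dotted lines at 2-fold. The Aldh3a1 probes (triangles) lie at 1.28 and 0.79 for AR7, at the upper edge of the bright probes, and at -0.04 and -0.01 for BMS614, while the other aldehyde dehydrogenase probes (circles) lie close to 0 except the dimmer Aldh6a1 probe with AR7.

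Of the 13 probes, 1 differed at least 2-fold between AR7 and None, the dimmer Aldh3a1 probe, against 1.62% of 33355 probes over the whole array with a measured difference or a bound. Between BMS614 and None 0 of the 13 did, against 1.82% of 33369 probes. Against None, 10 of the 13 had a measured difference, and Aldh1a2, Aldh1a3 and the dimmer Aldh7a1 probe could not be counted. The direct comparison of AR7 with BMS614 again had 1, the dimmer Aldh3a1 probe, against 1.73% of 35582 probes. At 1.5-fold the counts were 2, 0 and 3, against 6.38%, 7.11% and 7.48% of probes, and came from both Aldh3a1 probes and, between AR7 and BMS614, the bound of Aldh1a2. At 3-fold they were 0 in each comparison, against 0.495%, 0.408% and 0.413%. The counts for AR7 rest on the AR7 array that chose Aldh3a1, and nothing is read from them. No comparison here is independent of another, since each pair of the 3 comparisons shares an array.

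Among the retinaldehyde dehydrogenases, Aldh1a1 was measured on all arrays, and its relatives were at or below the limit of detection. Aldh1a1 had an intensity of 384 with None, 447 with AR7 and 531 with BMS614, or log2 signals of 8.31, 8.35 and 8.44. Its differences from None, 0.05 (SD 0.13) with AR7 and 0.14 (SD 0.12) with BMS614, were within 2 SD of repeated spots. The AR7 value changed sign with the processing, from -0.01 to 0.07. Aldh1a2 had intensities of 131, 134 and 155 in the same order and was well above background with BMS614 alone. Its log2 difference between AR7 and BMS614, -0.73 (SD 0.38), was within 2 SD of repeated spots and was -0.21 with normexp correction, and no fold is given against None, where it was not measured. Aldh1a3 had intensities of 108, 117 and 101.5 and was dim, that is not well above background, on every array. Of the 3 enzymes that make retinoic acid, then, only Aldh1a1 had a level that could be compared between all 3 arrays.

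Aldh3a2, the fatty aldehyde dehydrogenase of the endoplasmic reticulum and the neighbour of Aldh3a1, was level. Its intensity was 922 with None, 1047 with AR7 and 1160 with BMS614, and its log2 signals were 9.87, 9.88 and 9.80. The difference was 0.01 (SD 0.08) for AR7 minus None and -0.07 (SD 0.07) for BMS614 minus None. Its value for AR7 changed sign with the processing, from -0.04 to 0.02. Aldh2, the mitochondrial enzyme that oxidizes acetaldehyde, had intensities of 1038.5, 1257 and 1324 and log2 signals of 10.06, 10.17 and 10.01. It differed from None by 0.11 (SD 0.08) with AR7 and by -0.05 (SD 0.07) with BMS614, and was higher with AR7 than with BMS614 by 0.17 (SD 0.07), past 2 SD of repeated spots.

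**Figure D2:**
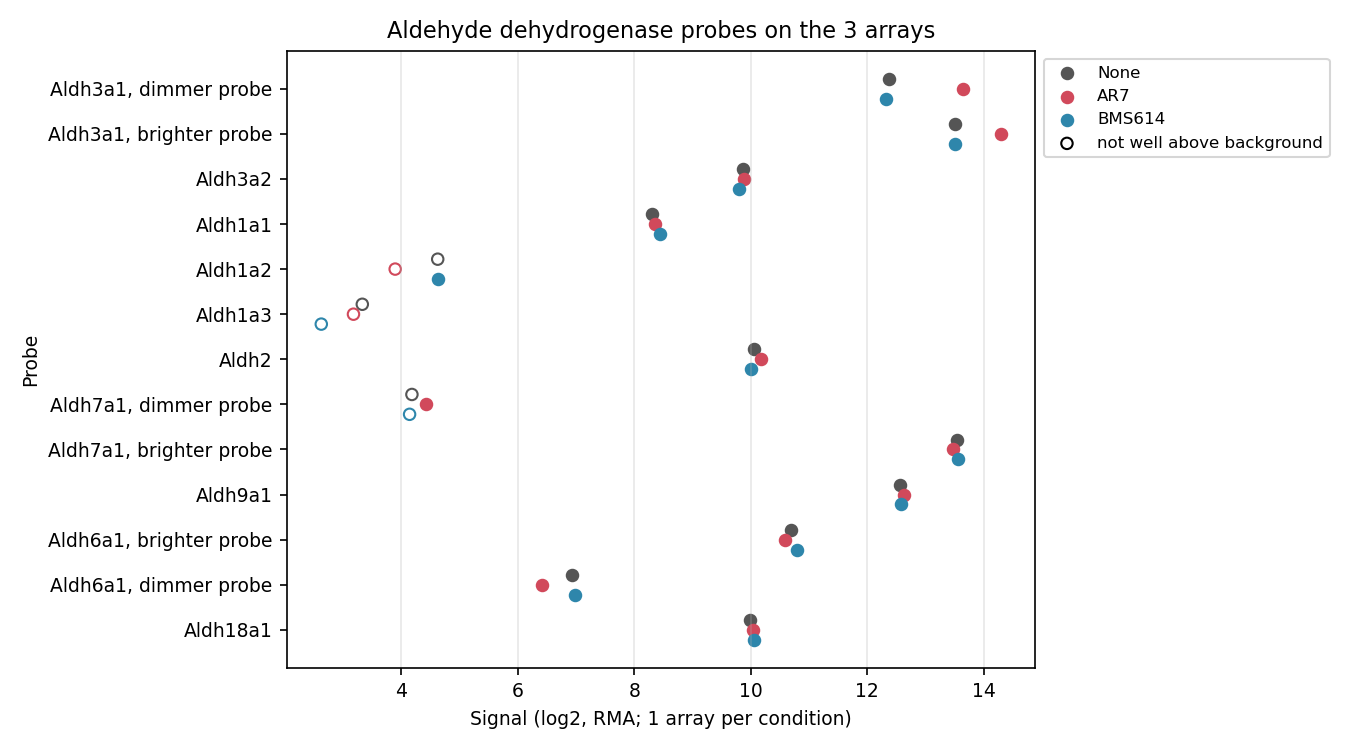
Log2 signal after RMA (horizontal axis) of each aldehyde dehydrogenase probe (vertical axis) on the None, AR7 and BMS614 arrays, 1 point per array, with open points where a probe was not well above background. The AR7 point stands to the right of the others for both Aldh3a1 probes and to their left for the dimmer Aldh6a1 probe, and the points of the other probes measured on all 3 arrays lie together.

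Of the enzymes of amino acid metabolism, Aldh7a1 and Aldh18a1 were level. Aldh7a1, which acts in lysine breakdown, was read by a bright probe with intensities of 10456, 11150 and 14068 and log2 signals of 13.54, 13.48 and 13.56, differing from None by -0.06 (SD 0.06) with AR7 and 0.02 (SD 0.05) with BMS614. Its other probe, matched to another transcript accession, had intensities of 123, 145 and 143 and was well above background with AR7 only. Aldh18a1, the mitochondrial enzyme that starts proline synthesis from glutamate, had intensities of 991, 1150 and 1355.5 and log2 signals of 9.99, 10.03 and 10.05. Its differences were 0.04 (SD 0.08) and 0.06 (SD 0.07), and the AR7 value changed sign with the processing, from -0.02 to 0.05. Both genes were within the error of spots with each compound.

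Aldh6a1, the methylmalonate semialdehyde dehydrogenase of valine and thymine breakdown, was lower with AR7 than with BMS614 in both its probes. The brighter probe had intensities of 1540.5 with None, 1633 with AR7 and 2190 with BMS614, and log2 signals of 10.69, 10.60 and 10.79. It differed from None by -0.09 (SD 0.06) with AR7 and 0.10 (SD 0.06) with BMS614, each within 2 SD, and AR7 differed from BMS614 by -0.19 (SD 0.05). The dimmer probe had intensities of 216, 211 and 275 and log2 signals of 6.94, 6.41 and 6.98. Its AR7 value was lowest, with differences of -0.52 (SD 0.22) from None and -0.57 (SD 0.21) from BMS614, both past 2 SD of repeated spots. At this low signal the size depended on the background correction. AR7 minus None was -0.27 with normexp correction, -0.31 with the processed signal, -0.26 in the deposited table and -0.47 with RMA background and other scaling. AR7 minus BMS614 was -0.29 with normexp correction, -0.51 with the processed signal, -0.44 in the deposited table and -0.55 with RMA background and other scaling. The SD of repeated spots was computed for the main values only. Set against it, the values from -0.26 to -0.31 lay within 2 SD and the others past it. The SD under other processing was not computed.

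Aldh9a1, which oxidizes the trimethylaminobutyraldehyde of carnitine synthesis and aldehydes from polyamines, was level. Its intensity was 5335.5 with None, 6225 with AR7 and 7263 with BMS614, with log2 signals of 12.56, 12.62 and 12.58. It differed from None by 0.07 (SD 0.05) with AR7 and 0.02 (SD 0.05) with BMS614. The higher raw intensity with BMS614 than with None, seen in most of these probes, went with the brighter scan of the whole array, whose 75th percentile of intensity was 692 with None, 780.5 with AR7 and 909 with BMS614.

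**Figure D3:**
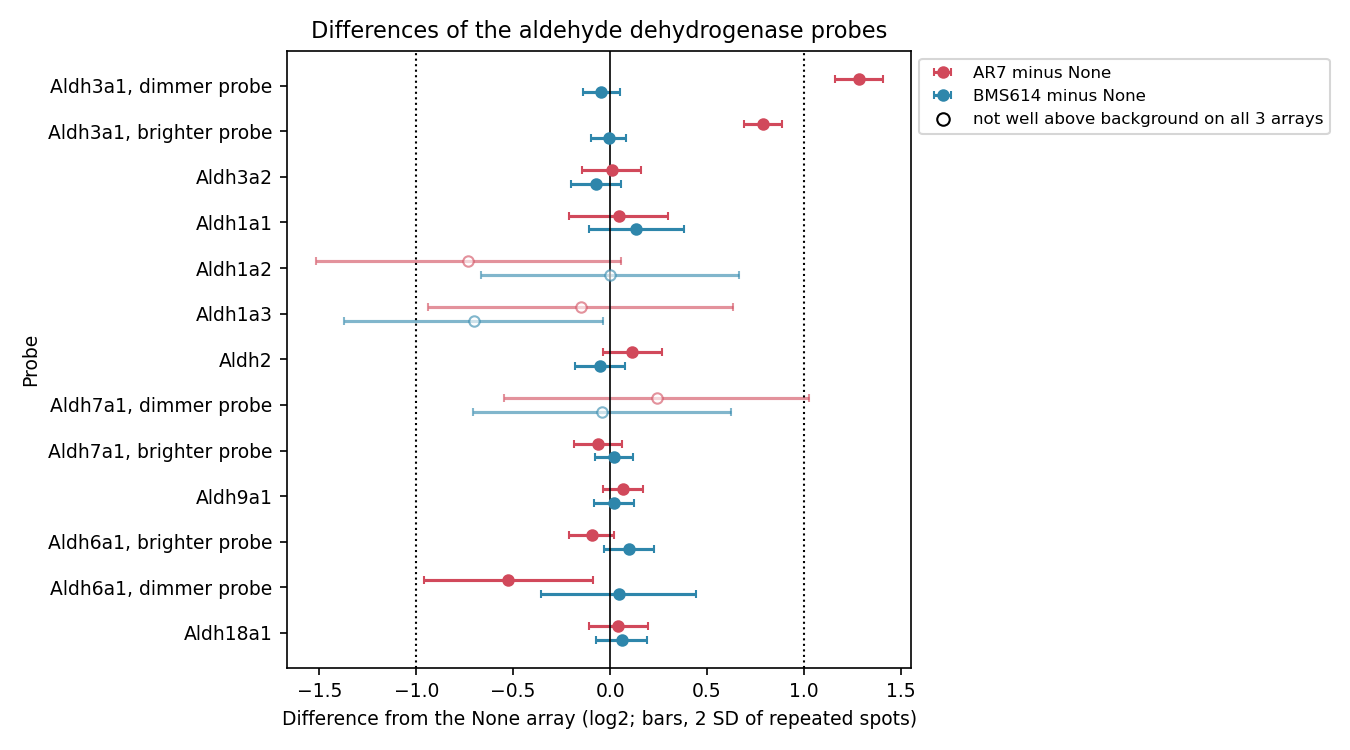
Log2 difference from the None array (horizontal axis) of each aldehyde dehydrogenase probe (vertical axis) with AR7 and with BMS614, with bars of 2 SD of repeated spots, dotted lines at 2-fold and open points for probes not well above background on all 3 arrays. With AR7 both Aldh3a1 probes lie to the right of 0 beyond their bars and the dimmer Aldh6a1 probe to the left, and with BMS614 the bars of all 10 probes measured on every array reach 0.

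Leaving out Aldh3a1, 7 genes had their brightest probe well above background on all arrays. Their log2 differences between AR7 and None ran from -0.09 to 0.11 with a median of 0.04, and those between BMS614 and None from -0.07 to 0.14 with a median of 0.02. Over all 30289 probes the medians were -0.01 and -0.002, and the median absolute differences were 0.10 and 0.12. The 7 genes therefore lay within the range of an ordinary probe. Of the 8 probes of these genes well above background on every array, 7 were within 2 SD of repeated spots for AR7 minus None, all 8 for BMS614 minus None and 5 for AR7 minus BMS614. Over all such probes, 17.5%, 25.5% and 24.9% were past 2 SD in these comparisons.

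AR7 and BMS614 were given at the same dose and time, so the direct comparison is a matched one, with 1 array each. Aldh3a1 was higher with AR7 by 1.33 (SD 0.04), or 2.51-fold, in the dimmer probe and by 0.80 (SD 0.04), or 1.74-fold, in the brighter one. Aldh2 was higher with AR7 and Aldh6a1 lower, as given above, both by less than 2-fold in each probe. Aldh1a1 (-0.09, SD 0.11), Aldh3a2 (0.08, SD 0.07), Aldh7a1 (-0.08, SD 0.04, brighter probe), Aldh9a1 (0.05, SD 0.04) and Aldh18a1 (-0.02, SD 0.07) were within 2 SD of repeated spots, and the Aldh3a2 and Aldh9a1 values turned negative under some processing, to -0.001 and -0.03 at the lowest.

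The values of Aldh3a1 depended little on how the arrays were processed. Over 6 kinds of background correction and scaling, AR7 minus None ran from 1.24 to 1.28 in the dimmer probe and from 0.74 to 0.79 in the brighter one, and BMS614 minus None from -0.06 to -0.04 and from -0.04 to -0.01. The gap between the probes was present in each.

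**Figure D4:**
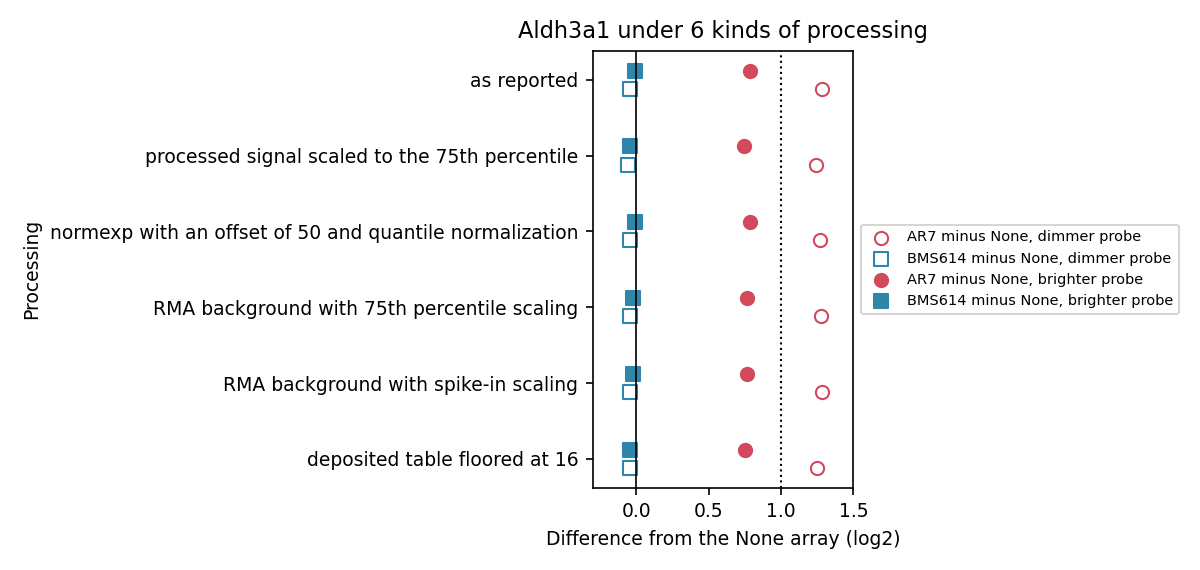
Log2 difference of Aldh3a1 from the None array (horizontal axis) under 6 kinds of processing (vertical axis), with filled points for the brighter probe, open points for the dimmer one, circles for AR7 and squares for BMS614, and a dotted line at 2-fold. The AR7 values of the dimmer probe stay between 1.24 and 1.28, past 2-fold, those of the brighter probe between 0.74 and 0.79, and the BMS614 values between -0.06 and -0.01.

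The array holds 11 further aldehyde dehydrogenase genes. The brightest probe passed the background threshold on every array for 8 of them, and none of the 8 was higher with AR7 past 2 SD, against 9.40% of the 13805 named genes measured on every array. Aldh3b1, which oxidizes medium- and long-chain aldehydes, was lower on both treated arrays, with log2 signals of 8.75 with None, 8.38 with AR7 and 8.54 with BMS614. Its difference was -0.37 (SD 0.08) with AR7 and -0.22 (SD 0.10) with BMS614, both past 2 SD. With BMS614, Aldh3b3 (-0.25) and the cytosolic formyltetrahydrofolate dehydrogenase Aldh1l1 (-0.20) were also lower past 2 SD, and its mitochondrial counterpart Aldh1l2 was higher (0.13). With Aldh3b1 this makes 3 of 8 lower and 1 higher, beside 12.1% lower and 13.3% higher over all named genes with BMS614. These genes were within 2 SD with AR7, at -0.08, -0.10 and 0.004. Aldh1a7, Aldh4a1, Aldh8a1 and Aldh16a1 were within 2 SD with both compounds, and Aldh1b1, Aldh3b2 and Aldh5a1 were dim on every array. Of the 21 aldehyde dehydrogenase genes on the array, 5 could not be compared between all 3 conditions, and of the rest Aldh3a1 alone had a brightest probe that was higher with AR7 than with None past 2 SD of repeated spots, in the contrast by which it was picked.

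Genes known to share regulators with Aldh3a1 were read as lists, each gene by its brightest probe. Of 18 NRF2 target genes well above background on all arrays, all had a positive difference between AR7 and None, with a median of 0.28, and 14 (77.8%) were higher past 2 SD and 0 lower. Over all named genes the median was -0.003 and 9.40% were higher past 2 SD. With BMS614 the NRF2 median was 0.06, with 5 higher and 1 lower, beside 13.3% and 12.1% of all named genes. NAD(P)H quinone oxidoreductase Nqo1, a target of both NRF2 and AhR, had intensities of 1300 with None, 2626 with AR7 and 1976 with BMS614, and differed from None by 0.90 (SD 0.06) with AR7 and 0.21 (SD 0.06) with BMS614. Gsta4, a glutathione transferase that conjugates the lipid aldehyde 4-hydroxynonenal, differed by 0.63 (SD 0.06) and 0.10 (SD 0.06). The list median for AR7 ran from 0.24 to 0.28 over the kinds of processing.

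Of the AhR target genes, 6 could be read on every array, and 3 of these were higher with AR7 past 2 SD and 0 lower, with a median of 0.15, beside 9.40% higher and 8.74% lower over all named genes. With BMS614, 2 were higher and 0 lower, with a median of 0.11, beside 13.3% and 12.1%. Nqo1 is one of them in both comparisons and belongs to both lists. Cyp1b1, a cytochrome P450 of the AhR response, differed by 0.28 (SD 0.06) with AR7 and 0.21 (SD 0.05) with BMS614. With AR7, 4 of the 6 had a positive difference from None. Ahrr (-0.36, SD 0.22) and Ugt1a6a (-0.09, SD 0.39) were negative, both within 2 SD. Between AR7 and BMS614, 2 of the 6 were higher past 2 SD and 1 lower, with a median of 0.16. The lower gene was Ahrr, at -0.52 (SD 0.21). Cyp1a1 and Cyp1a2, the classical AhR targets, were dim on every array.

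The lists for pathways of the other members, and for related reductases, had medians between -0.14 and 0.02 with AR7. For AR7 minus None the median was -0.02 over 15 genes of retinoid metabolism, with 1 higher and 3 lower past 2 SD, and 0.02 over 17 aldo-keto and carbonyl reductases, with 2 higher and 3 lower. The latter median became -0.01 with the processed signal. It was -0.05 over 7 genes of proline synthesis, -0.14 over 3 of lysine breakdown, -0.05 over 15 of branched-chain amino acid breakdown, -0.03 over 12 of carnitine and polyamine metabolism and -0.004 over 9 of sphingolipid and ether lipid metabolism. In these 5 lists 4 genes were higher past 2 SD and 2 lower, beside 9.40% and 8.74% of all named genes. Dhrs4, a retinal reductase of the retinoid list, had log2 signals of 9.57, 9.21 and 9.72 and was lower with AR7 by 0.36 than with None and by 0.52 than with BMS614. In branched-chain amino acid breakdown, the pathway of Aldh6a1, 7 of 15 genes were lower with AR7 than with BMS614 past 2 SD and 0 higher, beside 14.1% and 14% of all named genes. This direction was not particular to that pathway, since 6 of 11 fibroblast markers were also lower past 2 SD and 0 higher. Of the genes in these lists that were well above background on all arrays, 0 differed at least 2-fold in any comparison. Few genes did so at all, 51 of 13805 named genes for AR7 minus None, 55 for BMS614 minus None and 28 for AR7 minus BMS614. Ugt1a6a, Ahrr, Crat and Maob, each with a log2 signal near the low end of the scale, also differed by more than 0.5 in a comparison. Of these, Maob alone passed 2 SD against None, at -0.53 (SD 0.20) with BMS614. Ahrr alone passed it between AR7 and BMS614, at -0.52 (SD 0.21).

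**Figure D5:**
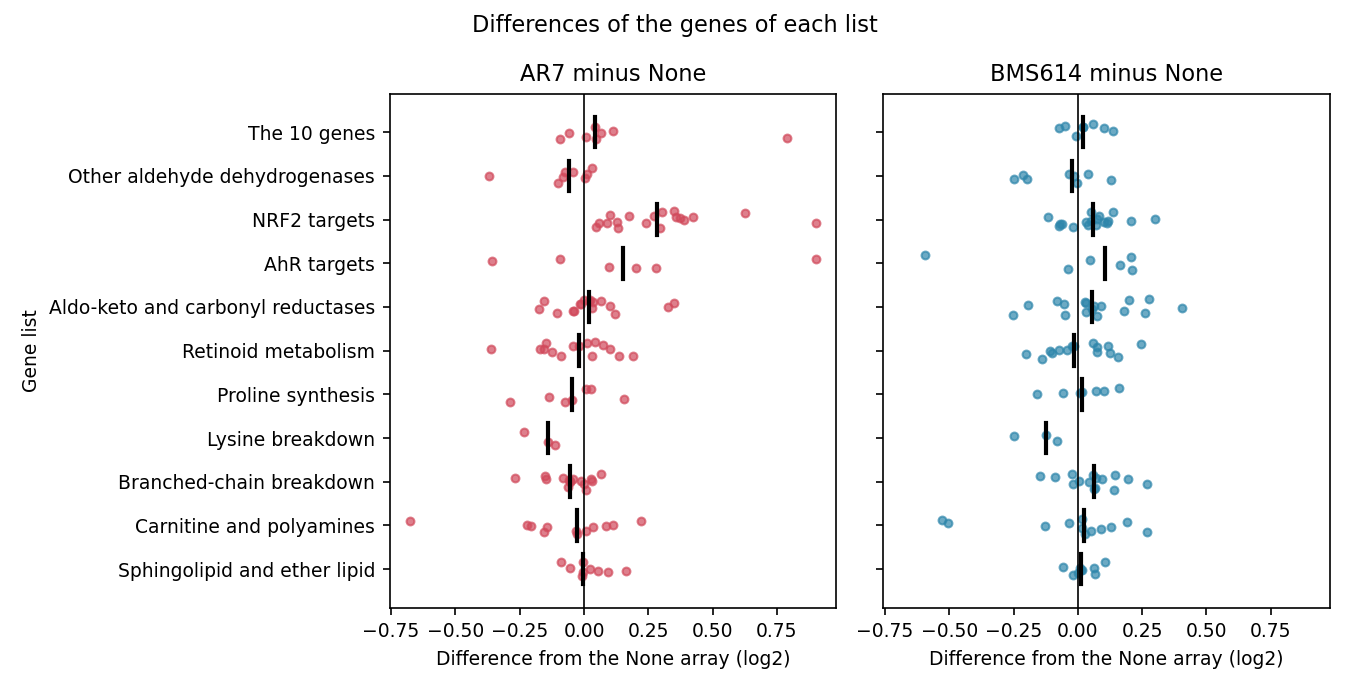
Log2 difference from the None array (horizontal axis) with AR7 (left) and BMS614 (right) for the genes of each list (vertical axis) whose brightest probe was well above background on all 3 arrays, 1 point per gene, with a black bar at the list median. The NRF2 targets have the highest median with AR7, 0.28, against 0.06 with BMS614, and among the 10 aldehyde dehydrogenases Aldh3a1 stands apart at 0.79 with AR7.

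The genes most like Aldh3a1 were sought among 1425 genes whose brightest probe was unsaturated and at least as bright. Likeness was the distance between their pairs of log2 differences from None, over 3 arrays. Aldh3a1 was taken at its brighter probe (0.79 for AR7 and -0.01 for BMS614), which ranked 1st for AR7 among probes at least as bright. Every gene found therefore had a smaller difference with AR7. The closest was Slc48a1, a heme transporter, at a distance of 0.31, with 0.48 for AR7 and 0.03 for BMS614. Next came Esd, the esterase that hydrolyses S-formylglutathione (0.44 and 0.10), whose other probe gave 0.47 and 0.11. The glypican Gpc1 (0.39 and 0.16), the glycogen-targeting phosphatase subunit Ppp1r3b (0.35 and 0.06) and the retinoid-binding protein Rbp3 (0.36 and 0.12) followed, at distances of 0.43, 0.45 and 0.45. The distances of the last 3 lie within the error of spots of one another. The order depends on the limit on brightness. With no such limit, an alternative chosen after seeing the data, Slc48a1 was 38th of 13804 genes, behind Gsta4 (11th, at 0.19) and Nqo1 (20th, at 0.24). Gsta4 and Nqo1 were looked up by name in that ranking, and the other genes ahead of Slc48a1 were not listed.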

How the data were processed

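RNA of NIH3T3 cells was measured on 3 one-colour arrays, 1 per condition, grouped by the treatment in their labels. The authors deposited the scanner's median pixel intensity of each spot, not normalized between arrays. A second deposited file holds processed intensity values, which are a linear function of the background-subtracted signal (Pearson r 1.0 over 55249 probes with 1 spot, medians 70.3 with AR7, 67.1 with BMS614 and 64.6 with None), so the scale is linear, and how they were centred or scaled between arrays is not given in the sources used here. The submitters' processing notes name RMA and oligo.

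Log2 values were computed from the deposited median intensity, after the RMA convolution background of each array and quantile normalization over the 3 arrays, and spots of one probe were averaged. Controls and outlier-marked spots were excluded. The design assumed mean pixel intensity, which was replaced by the median. R 4.3.3 with limma 3.58.1 and Python 3.11.15 (matplotlib 3.10.9, pandas 2.3.3, scipy 1.17.1, numpy 2.4.6) were used. Accessions matched 27235 probes to 20660 genes of the RefSeq table of GRCm38.p6. A gene was represented by its brightest probe where 1 value was needed.

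A probe was counted from an absolute log2 difference of 1 (2-fold) upwards if either array of the pair showed it well above background. Where it was dim on one of them, its bound was used, taken against its own signal there or the lowest signal of any probe above background, whichever was higher. Technical SDs came from 266 probes printed 10 times, in 10 bins of signal. The number of arrays limits the precision, and no p-values were computed. The counting rule and the SD were tested on simulated data.

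All 10 aldehyde dehydrogenases and the 11 others on the array are named, and of the other lists genes with an absolute log2 difference of at least 0.5, at most 4 by size. Cyp1b1, Cyp1a1 and Cyp1a2 were named after their values were seen. The members, lists and tests were chosen with earlier results of these data known. Alternatives covered background correction, scaling, the filter on dim probes, the fold threshold (1.5 and 3), the use of several probes of a gene and the deposited table, floored at 16.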

Additional observations from a re-analysis of the deposited data

How the results depend on the processing

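The count of aldehyde dehydrogenase probes at 2-fold kept its value or stayed within 1.5 times of it under every alternative tried except the fold threshold. At 1.5-fold it was 2 for AR7 minus None and 3 for AR7 minus BMS614, and at 3-fold it was 0 for both, in place of 1. The median over the 10 genes stayed within the spread used for it, at -0.02 to 0.04 for AR7 minus None, -0.02 to 0.05 for BMS614 minus None and -0.05 to 0.06 for AR7 minus BMS614, so that its sign depended on the processing. Of the values of single probes under other processing, 183 moved by less than 1 SD of repeated spots and 12 by more, most of them in Aldh1a2, Aldh1a3 and the dimmer Aldh6a1 and Aldh7a1 probes and the rest in Aldh3a2 and Aldh9a1 for AR7 minus BMS614. Scaling on the spike-in controls moved the median of all probes by 0.15 for AR7 minus None, 0.31 for BMS614 minus None and -0.15 for AR7 minus BMS614, and its values are given relative to that shift. No replicate could be left out with 1 array per condition. No paired analysis was possible because the groups share fewer than 2 replicate numbers. A signal near background, as for Aldh1a2, Aldh1a3 and the dimmer Aldh7a1 probe, allows bounds at most.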
